A study of Homo sapiens with 6 samples.

Results

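The 9 genes described here, TXNRD1, SRXN1, SLC7A11, GCLC, GCLM, HMOX1, NQO1, OSGIN1 and SQSTM1, are textbook antioxidant and stress targets of the transcription factor NRF2. They were chosen by gene symbol, and all 9 were found among the 38900 gene IDs of the deposited table. RNA came from hTERT RPE1, an established human line of retinal pigment epithelial origin that carries the telomerase gene. All cells had been left confluent for 5 days to make them quiescent, and were then given fresh medium for 6 hours. In 3 libraries that medium held combretastatin A4 (CA4) at 100 nM, a small molecule that binds tubulin and takes microtubules apart, and in 3 it held only the solvent, DMSO at 0.1%. One line, one dose and one time were compared. The labels do not say whether replicates came from separate cultures, so p-values measure the spread between these libraries, which may be technical.

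NRF2, encoded by NFE2L2, is bound in the cytoplasm by KEAP1 and handed to the ubiquitin ligase scaffold CUL3 for degradation. Oxidants and electrophiles modify KEAP1, after which NRF2 gathers in the nucleus, pairs with a small MAF protein and binds the antioxidant response element. BACH1 competes for the same element as a repressor, and HMOX1 is its best known target. NRF2 targets make glutathione, run the thioredoxin system and handle quinones, haem and iron. Several have other inputs as well: SLC7A11 is also a target of ATF4, the factor of the amino acid stress response.

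The core of the antioxidant response element, TGACNNNGC on either strand, was searched in RefSeq promoter windows reaching from 250 bases before to 50 bases after a start site (GRCh38.p14). There were 10 windows for 7 of the genes, and HMOX1 and SLC7A11 had none. The core was present in 3 of the 10, both windows of TXNRD1 and that of GCLM, and in 13.3% of all 35116 windows. The form TGANTCAGC was present in 1 of the 10, that of OSGIN1, and in 1.36% of all. That match contains the AP-1 motif TGANTCA, which was found in 7.71% of all windows and in no other of the 10. The matches are printed in capitals with 10 bases on each side, on the transcribed gene's sense strand, because TXNRD1 and GCLM carry the same core and had unlike values after CA4. Positions are those of the first capital relative to the start site.
TXNRD1 upstream start, position -99, chr12:104215670-104215698, plus strand: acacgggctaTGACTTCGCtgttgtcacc
TXNRD1 upstream start, position -8, chr12:104215761-104215789, plus strand: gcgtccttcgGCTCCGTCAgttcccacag
TXNRD1 downstream start, position -102, chr12:104286920-104286948, plus strand: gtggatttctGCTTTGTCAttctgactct
GCLM, position -34, chr1:93909446-93909474, minus strand: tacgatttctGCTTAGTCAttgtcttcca
OSGIN1, position -99, chr16:83953131-83953159, plus strand: acgggcccctGCTGACTCAcgcttatgaa
Read on the opposite strand, the element at the downstream TXNRD1 start is TGACAAAGC and that of GCLM is TGACTAAGC. These are matches of letters only, and sequence outside the windows was not searched, so a gene without a match may have an element elsewhere. The counts are per gene, so the 2 TXNRD1 starts cannot be told apart in the values that follow.

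The deposited values are normalized counts, a gene's reads divided by 1 scaling factor per library, and the recovered reads ran from 19524936 to 22538004 per library. The limma package was run on log2(normalized count + 1) for genes averaging 10 normalized counts or more. Of 13928 such genes, 688 (4.94%) passed an adjusted p of 0.05, 2.97% higher and 1.97% lower in CA4. That count was 100 without DMSO replicate 2, 81 without DMSO replicate 3, 156 without CA4 replicate 1 and 150 without CA4 replicate 3. Of 14 pigment epithelium markers, 8 were tested: KRT8 and KRT18 were abundant, RPE65 lay between 13.5 and 40.8 normalized counts, RLBP1, TYR, TYRP1 and LRAT were below the filter, and DCT and TTR were at 0 in all libraries. Their sum, mostly KRT8 and KRT18, was 24199 to 26623 in DMSO and 27036 to 32208 in CA4. Against that sum, OTX2 fell from 533 ± 104 to 244 ± 15.5 (log2 fold change -1.11, SE 0.16, adjusted p = 0.0158 in limma), a call lost without DMSO replicate 2 or 3 or CA4 replicate 1 or 3 (adjusted p up to 0.0816). MITF had 885 ± 239 and 457 ± 170 (-0.98, SE 0.29, adjusted p = 0.100), with overlapping groups. The 8 fibroblast markers summed to 166463 to 180379 in DMSO and 154324 to 174492 in CA4, and the 6 immune markers, with CD3E at 0, to 739 to 941 and 541 to 749. The 4 endothelial markers summed to 1084 to 1575 in DMSO and 1406 to 3414 in CA4, highest in CA4 replicate 3. The part of these markers in the results was not tested.

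The 9 genes did not move as a block. TXNRD1 rose 2.53-fold in CA4 by the fitted log2 fold change. It was the only one of the 9 past the threshold in limma with treatment as the only term, beside 4.94% of all tested genes. More of the 9 passed with a replicate block, as the closing section gives. The CA4 libraries lay wholly above the DMSO libraries in 5 genes, TXNRD1, SRXN1, SLC7A11, OSGIN1 and SQSTM1, beside 14.3% of tested genes. They lay wholly below in HMOX1 and NQO1, beside 13.4%, while GCLC and GCLM overlapped. In all, 7 of 9 showed no overlap, beside 27.7% of tested genes. The median log2 fold change was 0.39 over the 9 genes, 0.26 over the 8 other than TXNRD1 and -0.0082 over all tested genes. Of those 8, limma called 0, edgeR's quasi-likelihood test 0 and DESeq2 4 (HMOX1, SRXN1, SLC7A11 and SQSTM1), beside 4.62% of genes called by edgeR and 11.6% by DESeq2, and 6 had an unadjusted limma p under 0.05, beside 23.0% of all tested genes. In bulk RNA, fewer expressing cells and less RNA per cell cannot be told apart.

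**Figure D1:**
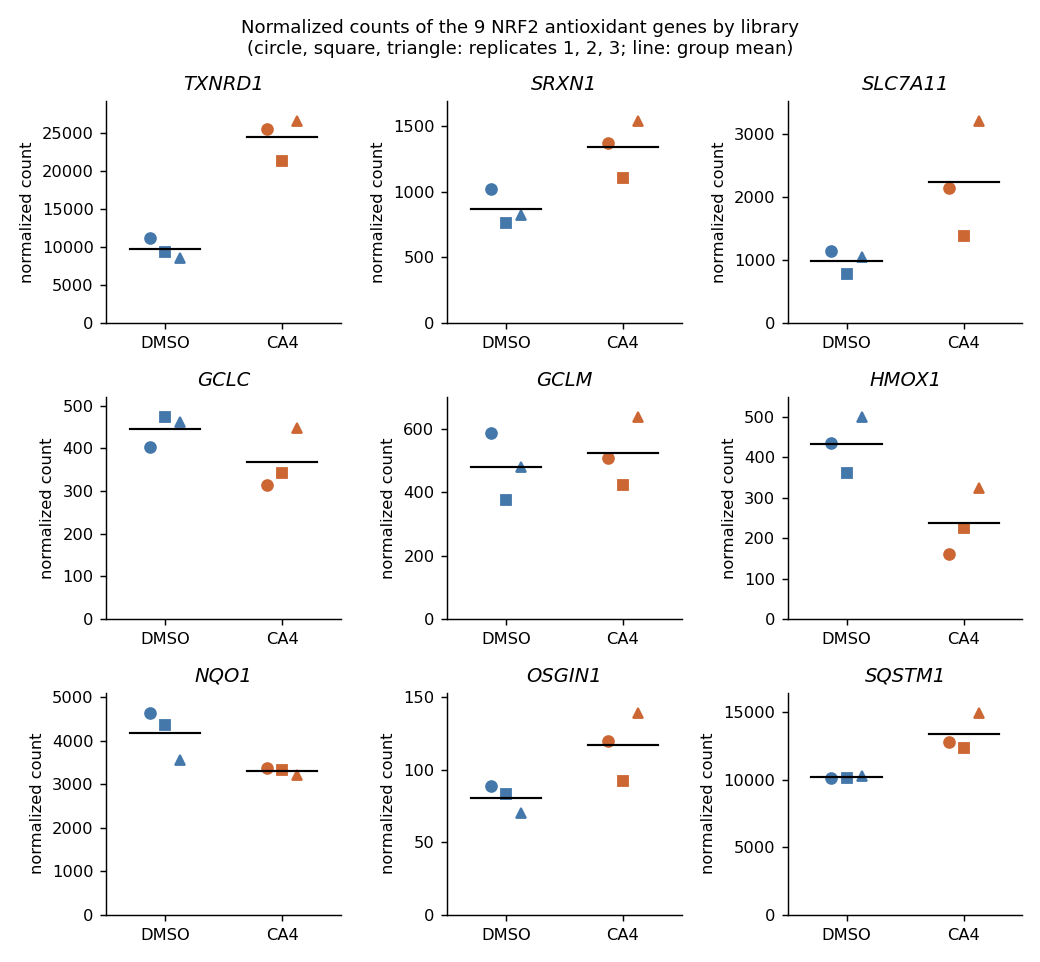
Normalized counts of the 9 genes in each of the 6 libraries, 1 panel per gene with a linear axis; points are libraries by group and lines are the means of 3. TXNRD1 lies between 8610 and 11134 in DMSO and between 21306 and 26510.1 in CA4, and the groups overlap in GCLC and GCLM.

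TXNRD1 encodes cytosolic thioredoxin reductase, a selenoprotein that spends NADPH to keep thioredoxin reduced. The gene (ENSG00000198431) lies on the plus strand of chromosome 12, from 104215779 to 104350305 in GENCODE 29 (GRCh38). DMSO replicates 1, 2 and 3 had 11134, 9305 and 8610 normalized counts, whereas CA4 replicates 1, 2 and 3 had 25465, 21306 and 26510.1. The lowest CA4 library was far above the highest DMSO library. Group means were 9683 ± 1304 and 24427 ± 2753 (SD, n = 3 each). The log2 fold change was 1.34 ± 0.12 (SE), and the adjusted p in limma was 0.00404. Among the 13928 tested genes 202 had a higher log2 fold change, and 25 had a smaller p. The call held in all 18 alternative fits, in which the log2 fold change of TXNRD1 ran from 1.17 to 1.44 and the adjusted p reached 0.0354 at most. TXNRD1 took 0.0413% to 0.0546% of a library's normalized counts in DMSO and 0.0973% to 0.118% in CA4.

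SRXN1 encodes sulfiredoxin, which repairs overoxidized peroxiredoxins, the enzymes that thioredoxin serves. It lies on the minus strand of chromosome 20, from 646615 to 653370. DMSO replicates 1 to 3 had 1019.9, 759 and 821 normalized counts, against 1369.5, 1102 and 1536 in CA4. All CA4 libraries were above all DMSO libraries, with the nearest pair close together. The means were 867 ± 136 and 1336 ± 219 (SD, n = 3), a log2 fold change of 0.62 (SE 0.16) with a limma adjusted p of 0.0674. Without DMSO replicate 1 the adjusted p was 0.0382. Of the SRXN1 exon bases, 84.95% also belong to the same-strand gene ENSG00000270299, which had 10 reads in DMSO replicate 1 and 0 in the other 5 libraries, so the division of reads between them is uncertain.

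TXNRD1 had no called partner in thioredoxin itself or in the 2 related reductases. TXN, thioredoxin itself, had 1584 ± 137 normalized counts in DMSO and 1590.2 ± 23.1 in CA4, a log2 fold change of 0.0086 (SE 0.089) whose sign turned under 3 scalings. The mitochondrial reductase TXNRD2 had 552 ± 27.2 and 586 ± 27.9, and the paralog TXNRD3 135 ± 18.0 and 143 ± 25.0. Their log2 fold changes were 0.087 and 0.077, and both turned negative when libraries were scaled to the same total, to -0.014 and -0.024. A list of 28 genes held the thioredoxin system and other redox genes, among them sestrins, glutaredoxins, superoxide dismutases and catalase. All 28 were tested, 1 rose and 1 fell, beside 2.97% and 1.97% of all genes, and the median log2 fold change was -0.0075. Neither called gene is a thioredoxin, a thioredoxin reductase or a peroxiredoxin. SOD2, the mitochondrial superoxide dismutase, rose by 0.93 (SE 0.16, adjusted p = 0.0222 in limma). SESN3, a sestrin, fell by 2.05 on the log2 scale (SE 0.46, adjusted p = 0.0493 in limma). Both calls were lost without any 1 of DMSO replicates 2 and 3 or the 3 CA4 replicates, with adjusted p up to 0.0882 for SOD2 and 0.167 for SESN3.

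SLC7A11 encodes xCT, the light chain of the cystine-glutamate exchanger that brings in the cystine used for glutathione. It lies on the minus strand of chromosome 4, from 138164097 to 138242349. Its normalized counts were 1142, 775 and 1052 in DMSO replicates 1 to 3, and 2148, 1380.1 and 3214 in CA4. The CA4 libraries were all higher, and they spread widely. The means were 989.6 ± 191 and 2247 ± 921 (SD, n = 3), a log2 fold change of 1.12 ± 0.29 (SE), and the adjusted p in limma was 0.0735. In SLC7A11 the 95% interval of the log2 fold change was 0.43 to 1.80, which contains the TXNRD1 value. Without CA4 replicate 2 the adjusted p was 0.0367, and without CA4 replicate 3 the log2 fold change was 0.82.

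GCLC and GCLM encode the catalytic and the modifier subunit of glutamate-cysteine ligase, the rate-limiting enzyme of glutathione synthesis. GCLC (chromosome 6, 53497341 to 53616970, minus strand) had 403, 474 and 461 normalized counts in DMSO, against 314, 342 and 447 in CA4. CA4 replicate 3 lay among the DMSO libraries. The log2 fold change of GCLC was -0.29 (SE 0.16, 95% interval -0.66 to 0.077, adjusted p = 0.323 in limma). GCLM (chromosome 1, 93885205 to 93909456, minus strand) had 586, 376 and 480.5 in DMSO, against 507, 424 and 638 in CA4. The 2 groups were interleaved, and the log2 fold change of 0.12 (SE 0.21, 95% interval -0.35 to 0.60) turned to -0.041 without DMSO replicate 2 and -0.028 without CA4 replicate 3.

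HMOX1 encodes haem oxygenase 1, which opens the haem ring and frees its iron. It lies on the plus strand of chromosome 22, from 35380361 to 35394214. The DMSO replicates 1 to 3 held 436, 361 and 499 normalized counts of HMOX1, against 161, 226 and 323 in CA4. Every CA4 library was below every DMSO library. The means were 432 ± 69.4 and 237 ± 81.5 (SD, n = 3), and the fitted log2 fold change corresponds to a level 1.88 times higher in DMSO. The log2 fold change of HMOX1 was -0.91 (SE 0.26, 95% interval -1.50 to -0.32) with a limma adjusted p of 0.0852, and 499 of the tested genes had a lower one.

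NQO1 encodes a quinone reductase. It lies on the minus strand of chromosome 16, from 69706996 to 69726951. Normalized counts of NQO1 were 4644, 4360.4 and 3557 in DMSO replicates 1 to 3, against 3384, 3337 and 3204 in CA4. The CA4 libraries were tight and lay just under the lowest DMSO library. The log2 fold change was -0.33 (SE 0.11, 95% interval -0.58 to -0.079), with a limma adjusted p of 0.123. An antisense gene covers 17.7% of the NQO1 exon bases, and whether the counting used strand is not given in the sources used here.

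OSGIN1, a stress-induced gene that restrains growth, was the scarcest of the 9. It lies on the plus strand of chromosome 16, from 83948282 to 83966332. Its normalized counts were 88.9, 83.2 and 70.3 in DMSO replicates 1 to 3, against 119.8, 92.0 and 139 in CA4. The groups did not overlap, though CA4 replicate 2 was close to DMSO replicate 1, and the gap closed when libraries were scaled to the same total. The log2 fold change was 0.52 (SE 0.22, 95% interval 0.0073 to 1.02) with a limma adjusted p of 0.213.

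SQSTM1 encodes p62, an autophagy receptor that binds KEAP1. It lies on the plus strand of chromosome 5, from 179806398 to 179838078. Its normalized counts were 10143.5, 10108 and 10249 in DMSO replicates 1 to 3, against 12770.1, 12306 and 14949 in CA4. The DMSO libraries were nearly equal and every CA4 library was above them. The means were 10167 ± 73.1 and 13342 ± 1411 (SD, n = 3), a log2 fold change of 0.39 (SE 0.09) with a limma adjusted p of 0.0535. The opposite-strand gene MRNIP shares 20.7% of the SQSTM1 exon bases and had a log2 fold change of -0.13 (adjusted p = 0.626 in limma). Of 11 other autophagy receptors and their ATG8 partners, all tested, limma, edgeR and DESeq2 each called 0, beside 4.94%, 4.62% and 11.6% of all tested genes. Of the 11, 4 had an unadjusted limma p under 0.05, beside 23.0% of all tested genes, and the log2 fold changes ran from -0.29 to 0.27.

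**Figure D2:**
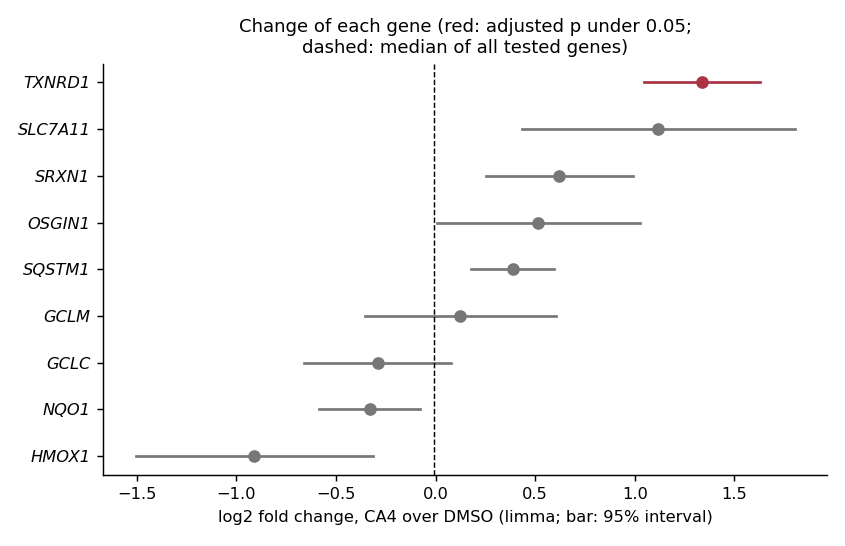
Log2 fold change of each of the 9 genes, CA4 over DMSO, with its 95% interval from limma; the dashed line is the median of all tested genes. TXNRD1 (1.34) and SLC7A11 (1.12) lie farthest to the right with intervals that overlap, and HMOX1 (-0.91) lies farthest to the left.

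Levels were compared between genes as normalized counts per kilobase of exon. In DMSO the TXNRD1 level was 1444 (range over 3 libraries 1284 to 1660), that of SQSTM1 1328 (1321 to 1339) and that of NQO1 1287 (1093 to 1427). These 3 ranges overlapped, so the highest place was shared. SRXN1 followed at 321, HMOX1 at 179.6, SLC7A11 at 103, GCLM at 88.7, GCLC at 51.6 and OSGIN1 at 23.3, with overlapping ranges for SLC7A11 and GCLM. In CA4 the TXNRD1 level was 3641 (3176 to 3952) and its range lay above that of SQSTM1, at 1743 (1608 to 1953). NQO1 followed at 1017 (985 to 1040) and SRXN1 at 495 (408 to 569). SLC7A11, at 233 (143 to 333), then stood above HMOX1, at 98.4 (67.1 to 134), which is the reverse of their order in DMSO. GCLM at 96.5 and HMOX1 overlapped in CA4, and GCLC at 42.5 overlapped with OSGIN1 at 33.8.

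Because a ratio of 2 genes within a library does not move with that library's scaling, TXNRD1 was also set against each other gene as a log2 ratio. TXNRD1 had been singled out with results known, so these ratios are descriptions. Against 7 of the 8 genes the ratio was higher in every CA4 library than in every DMSO library. The shift was 2.25 (SE 0.34) against HMOX1, 1.67 against NQO1, 1.63 against GCLC, 1.21 against GCLM, 0.95 against SQSTM1, 0.82 against OSGIN1 and 0.72 against SRXN1. Each of these 7 gave a two-sided exact permutation p of 0.1, the smallest that 3 against 3 allow, and 0.114 after adjustment over the 8 ratios. Against SLC7A11 the ratio was 3.28, 3.58 and 3.03 in DMSO, against 3.57, 3.95 and 3.04 in CA4. Those groups overlapped, with a shift of 0.22 (SE 0.31) and an exact permutation p of 0.6.

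**Figure D3:**
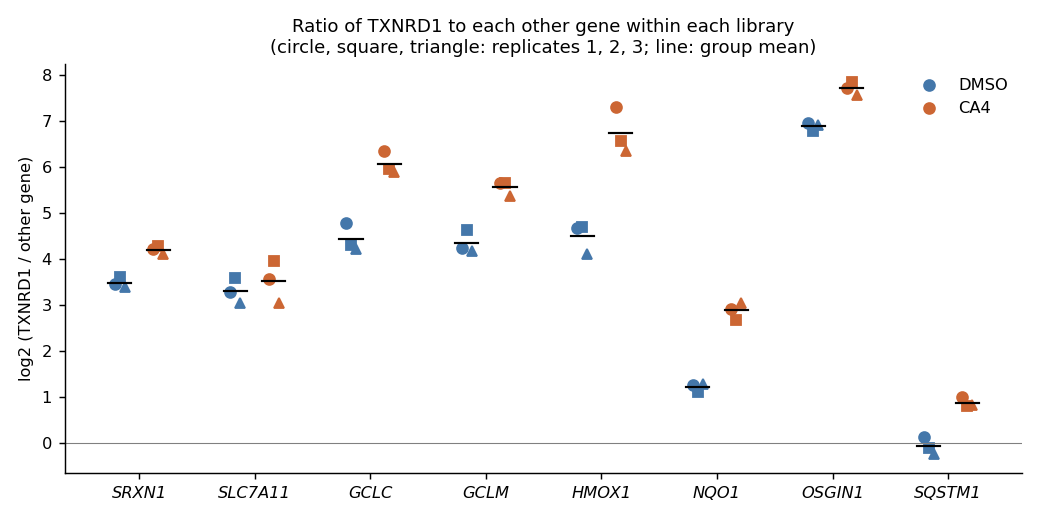
Log2 ratio of TXNRD1 to each other gene in each library, DMSO beside CA4; points are libraries and lines are the means of 3. The CA4 points lie above the DMSO points for every gene except SLC7A11, where 3.04 in CA4 replicate 3 lies among the DMSO values.

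The order of the 3 replicates within a group differed between the genes. TXNRD1 and OSGIN1 both ran 1, 2, 3 from high to low in DMSO and 3, 1, 2 in CA4. SLC7A11, SRXN1 and GCLM shared another order, 1, 3, 2 in DMSO and 3, 1, 2 in CA4, although the groups overlapped in GCLM. That order, singled out after its values were seen, was shared by 7 of 21 tested ATF4 targets, 5 of 27 genes of glutathione and cystine, 1 of 34 other NRF2 targets and 3.87% of all tested genes. The order of TXNRD1 and OSGIN1 was shared by 1, 2 and 1 genes of those lists and 2.57% of all tested genes, and that of NQO1 by 0, 0 and 4 genes and 5.74%. The 7 ATF4 targets were ASNS, PHGDH, PSAT1, SHMT2, SLC3A2, SLC7A5 and TRIB3, and SLC3A2 is the heavy chain that xCT pairs with. SLC3A2 is also on the glutathione and cystine list, and why genes shared an order was not tested. CA4 replicate 3, the library with the highest endothelial marker sum, was the highest CA4 library in 8 of the 9 genes, all but NQO1, and in 32.3% of tested genes. Without it the log2 fold change was 1.27 for TXNRD1 (adjusted p = 0.0242 in limma) and 0.82 for SLC7A11 (0.157).

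Among the genes that control NRF2, 14 of 15 were tested, 1 rose and 1 fell, beside 2.97% and 1.97% of all genes. NFE2L2, the NRF2 gene, fell from 1841, 2098 and 2085 normalized counts in DMSO to 1394, 1313 and 1576 in CA4. That is a log2 fold change of -0.49 (SE 0.10, adjusted p = 0.0392 in limma), with no overlap between groups. MAFF, a small MAF partner, rose from 336, 206 and 148 to 808, 457 and 691, a log2 fold change of 1.54 (SE 0.32, adjusted p = 0.0413 in limma). Neither call held in every leave-one-out fit: both were lost without DMSO replicate 2, DMSO replicate 3, CA4 replicate 1 or CA4 replicate 3, NFE2L2 also without CA4 replicate 2, with adjusted p up to 0.144 for NFE2L2 and 0.141 for MAFF. MAFK, another small MAF, had 2669 ± 310 and 3800 ± 453, a log2 fold change of 0.51 with a limma adjusted p of 0.0542.

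KEAP1 had 1291 ± 95.6 normalized counts in DMSO and 1167 ± 130 in CA4, a log2 fold change of -0.15 (SE 0.11, adjusted p = 0.475 in limma). Its ligase scaffold CUL3 had 1681 ± 18.6 and 1480 ± 16.6, a log2 fold change of -0.18 (adjusted p = 0.186). The repressor BACH1 had 1382 ± 205 and 1741 ± 277, a log2 fold change of 0.33 (SE 0.15, adjusted p = 0.234), with overlapping groups. RNA level says nothing of the amount or place of these proteins, which was not measured.

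A wider list of NRF2 targets was set beside the 9 genes. Of 40 listed, 34 were tested, 1 rose and 1 fell, beside 2.97% and 1.97% of all tested genes, and the median log2 fold change was -0.10 against -0.0082 over all tested genes. The count called was 2 in edgeR and 9 of 34 in DESeq2, beside 4.62% and 11.6%. In 4 the CA4 libraries lay wholly above and in 10 wholly below the DMSO libraries, beside 14.3% and 13.4% of tested genes. CBR3, a carbonyl reductase, rose from 285 ± 18.8 to 489 ± 43.7 (log2 fold change 0.77, SE 0.12, adjusted p = 0.0185 in limma). ABCB6, a porphyrin transporter, fell from 652 ± 60.0 to 446 ± 7.71 (log2 fold change -0.54, SE 0.11, adjusted p = 0.0340 in limma). Without DMSO replicate 2, DMSO replicate 3, CA4 replicate 2 or CA4 replicate 3 both calls were lost, ABCB6 also without CA4 replicate 1, with adjusted p up to 0.0862 and 0.116. The lowest log2 fold changes of the list, named after their values were seen, belonged to 3 scarce aldo-keto reductases that missed the threshold without overlap between groups: AKR1C1 (-1.84, adjusted p = 0.107 in limma), AKR1B10 (-1.51, 0.0923) and AKR1C3 (-1.34, 0.0827). AKR1C1 and AKR1C3 have near-identical relatives, so their counts are uncertain. Closer to the threshold, also without overlap, were PGD (-0.33, 0.0602) and TKT (-0.46, 0.0796), enzymes of the pentose phosphate pathway, and, on the higher side, UGDH (0.65, 0.0713), which makes UDP-glucuronate.

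Of 29 genes of glutathione and cystine handling, 27 were tested, 2 rose and 0 fell, beside 2.97% and 1.97% of all tested genes, and the median log2 fold change was 0.054. The 2 are amino acid transporters. SLC38A1, which carries glutamine, went from 4503 ± 472 to 8183 ± 727 normalized counts (log2 fold change 0.86, SE 0.10, adjusted p = 0.0105 in limma), and its call held in all 6 leave-one-out fits. SLC1A5, which also carries glutamine, went from 1381 ± 304 to 3364 ± 1037 (1.26, SE 0.24, adjusted p = 0.0329), and its call was lost without DMSO replicate 2 or 3 or CA4 replicate 1 or 3, with adjusted p up to 0.129. SLC3A2, the partner of xCT, had 4775 ± 1088 and 10182 ± 3081, a log2 fold change of 1.07 (SE 0.25) with a limma adjusted p of 0.0540.

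The list of ATF4 targets leaves out SLC7A11, which is described above. Of 22 listed, 21 were tested, and 6 rose and 1 fell, 33.3% beside 4.94% of all tested genes, with a median log2 fold change of 0.75. The 6 were TRIB3, SLC7A5, CEBPG, MTHFD2, PPP1R15A and ATF3, with log2 fold changes from 0.63 (PPP1R15A) to 1.77 (ATF3). SLC7A5, a paralog of SLC7A11 that carries large neutral amino acids, rose from 11137 ± 2986 to 31681 ± 7587 normalized counts (1.52, SE 0.24, adjusted p = 0.0187 in limma). DDIT4, an inhibitor of mTORC1, fell by 1.95 (SE 0.40, adjusted p = 0.0403 in limma). Each of these 7 calls was lost without DMSO replicate 2, DMSO replicate 3 or CA4 replicate 1, and all but that of MTHFD2 also without CA4 replicate 3. Those of PPP1R15A, DDIT4 and ATF3 were also lost without CA4 replicate 2. The limma adjusted p reached 0.0761 for SLC7A5 and 0.138 for ATF3. The lists share genes, SLC3A2 among them, and are not independent of one another.

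TXNRD1 is a selenoprotein, and 26 of 28 genes for other selenoproteins and the selenocysteine machinery were tested. Of these 1 rose and 1 fell, beside 2.97% and 1.97% of all tested genes, with a median log2 fold change of 0.076. SELENOS, a selenoprotein of the endoplasmic reticulum, rose from 1097 ± 139 to 1971 ± 144 normalized counts (log2 fold change 0.85, SE 0.11, adjusted p = 0.0126 in limma). DIO2, a thyroid hormone deiodinase, fell by 2.28 (SE 0.50, adjusted p = 0.0468) from DMSO libraries that ranged from 768 to 3086. Without DMSO replicate 2, DMSO replicate 3, CA4 replicate 1 or CA4 replicate 3 both calls were lost, DIO2 also without CA4 replicate 2, with adjusted p up to 0.0654 for SELENOS and 0.150 for DIO2.

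Beside HMOX1, 11 of 12 genes of haem breakdown and iron were tested, 1 fell and 0 rose, beside 1.97% and 2.97% of all tested genes, and the median log2 fold change was -0.14. SLC40A1, ferroportin, the iron exporter, fell from 255, 268 and 312 normalized counts in DMSO to 94.7, 89.8 and 86.9 in CA4. The groups were far apart, with a log2 fold change of -1.61 (SE 0.15, adjusted p = 0.00416 in limma), and the call held in all 6 leave-one-out fits. Of the paralogs of the 9 genes, 9 of 13 were tested, and SLC7A5 was the only one called, beside 4.94% of all tested genes. SLC7A6, another light chain, had a log2 fold change of 0.78 (SE 0.18, adjusted p = 0.0541 in limma).

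**Figure D4:**
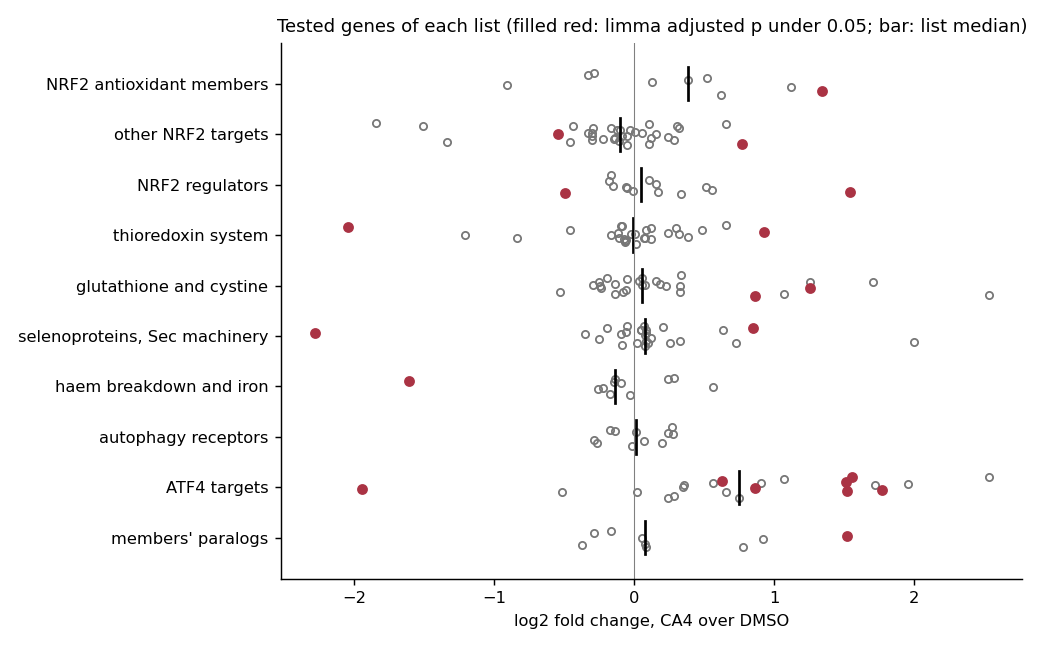
Log2 fold change of every tested gene in each list, CA4 over DMSO; filled points passed limma's threshold and bars are list medians. The ATF4 targets have the median farthest from 0, at 0.75, and the median of the wider NRF2 targets is -0.10, with single genes down to -1.84.

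On the chromosome, the nearest tested protein-coding genes on either side of TXNRD1 were not called with it. NFYB, 77490 bases before it, had a log2 fold change of 0.020 with no steady sign across alternatives (from -0.17 without CA4 replicate 2), and HCFC2, 109255 bases before it, had -0.32 (adjusted p = 0.133 in limma). CHST11, 104990 bases after it, had 0.16 (0.652), and SLC41A2, 452248 bases after it, had 0.65 (0.0937). The CA4 libraries lay wholly above the DMSO libraries in SLC41A2 and wholly below in HCFC2, and the groups overlapped in NFYB and CHST11. SLC41A2 passed the threshold in 2 of 18 alternatives and the other neighbours in 0. EID3 lies inside TXNRD1 on the same strand with 1 to 10 reads per library, and no annotated gene shares an exon base or a 50-base word with TXNRD1.

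Among the genes whose log2 values ran most like those of TXNRD1 over the 6 libraries, of 11688 with a mean of at least 50, were TRAM1 (Pearson r = 0.997), BAG3 (0.996), GOLGA5 (0.996) and CDH2 (0.996). The libraries fall into 2 groups in TXNRD1, so r here mostly repeats the difference between groups. These 4 had smaller log2 fold changes than TXNRD1, from 0.31 (CDH2) to 0.46 (BAG3). TRAM1, BAG3 and CDH2 passed limma's threshold. Each lost the call without DMSO replicate 2 or 3 or CA4 replicate 1 or 3, TRAM1 and CDH2 also without CA4 replicate 2. Their limma adjusted p then reached 0.110, 0.0976 and 0.154. Among the other 8 genes, r with TXNRD1 was 0.94 for SRXN1, 0.93 for SQSTM1, 0.89 for both OSGIN1 and SLC7A11, and 0.39 for GCLM, and it was -0.64 for GCLC, -0.72 for NQO1 and -0.79 for HMOX1.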

How the data were processed

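RNA sequencing of 6 libraries, 3 per group by their titles, was used. The deposited table, labelled normalized counts, holds a normalized signal. Division of gene counts by 1 scaling factor per library was inferred from the values. The submitters' processing notes name Trim Galore 0.6.6, FastQC 0.12.1, STAR 2.7.9a, Salmon 1.8.0, DESeq2 1.44.0 and GRCh38 without role or order. The annotation release and use of strand are not given in the sources used here, and genes that overlap others carry uncertain counts. In every column 100% of values were whole multiples of 1 read (tolerance 0.01). The recovered reads, 19524936 to 22538004 per library, entered edgeR and DESeq2 as alternatives, which called 643 and 1613 genes. A value of 0 allows up to 3 reads, for counting error only.

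Genes with a mean of at least 10 (13928, holding 99.9% of reads) were tested with limma 3.58.1 in R 4.3.3 on log2(normalized count + 1), with treatment as the only term and a variance trend, two-sided, with Benjamini-Hochberg adjustment over all of them and a threshold of 0.05. Fold changes on this scale understate changes of low genes. The scripts were tested on simulated data. Alternatives were other pseudocounts, filters, scalings and variance priors, a replicate block, edgeR 4.0.16, DESeq2 1.42.0 and leaving out each library. A promoter match required exact letters. Coordinates and exon lengths are from GENCODE 29.

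The 9 genes, the lists and the markers were chosen with earlier results of these data known. Named are the 9 genes; in other lists those past the threshold, or up to 3 with the smallest p; any tested NRF2 regulator or paralog of the 9; the genes among the 5 most like TXNRD1, of which 1 is not reported here; and its neighbours and overlapping genes. Outside that rule, and after their values were seen, SLC3A2, MITF, the other wider NRF2 targets that missed the threshold and the ATF4 targets of 1 replicate order were also named.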

Additional observations from a re-analysis of the deposited data

How the results depend on the processing

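Of all tested genes 688 passed the threshold; 103 did without a variance trend, 2397 with a replicate block, 1613 in DESeq2, and between 81 (without DMSO replicate 3) and 994 (without DMSO replicate 1) when 1 library was left out. Of the 9 genes 1 passed; 2 did with a mean of at least 50 (SQSTM1 added), 5 in DESeq2, 6 with the replicate block, and 1 to 2 with 1 library left out (SRXN1 added without DMSO replicate 1, SLC7A11 without CA4 replicate 2). TXNRD1 was among them in all 18 alternatives, and the cause of the other moves was not tested. The titles number the replicates but do not say whether same-numbered libraries were handled together. Deviations of same-numbered libraries correlated at 0.202, 0.159 and 0.0588, and those of differently numbered libraries at -0.214 to 0.0741. With the block the limma adjusted p was 0.0189 for HMOX1, 0.0313 for NQO1, 0.0131 for SRXN1, 0.00643 for SLC7A11 and 0.0126 for SQSTM1. For the ratios with the block, the smallest p 3 pairs allow is 0.25. No ratio of TXNRD1 to another of the 9 changed sign, though the smallest shift among the alternatives was 0.0052. Signs turned, with 1 library left out, for GCLM (-0.041 to 0.28), TXN (-0.030 to 0.079), TXNRD3 (-0.060 to 0.17) and NFYB (-0.17 to 0.23). They also turned under quantile normalization for TXN (-0.048), under scaling to the same 75th percentile for TXN (-0.024) and NFYB (-0.013), and under scaling to the same total for TXN (-0.093), TXNRD2 (-0.014), TXNRD3 (-0.024) and NFYB (-0.081), where the median of all genes shifted by -0.10. Among the 9 genes depth limits OSGIN1 most, with 74 to 125 reads per library, where counting error is not small beside the spread between libraries.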
